A study of Mus musculus with 16 samples.

Results

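The endoplasmic reticulum (ER) folding and unfolded protein response genes described here were 10 genes chosen by name from the secretory pathway, Hspa5, Hsp90b1, Pdia4, Sdf2l1, Dnajb9, Xbp1, Ern1, Ern2, Creb3l1 and Creb3l4, out of 54123 genes for which reads were summed in mouse colon organoid RNA-seq. All 10 were among the 15289 genes that passed the filter on low counts. Organoids, which are epithelial structures grown from colon stem cells, came from the proximal or the distal colon of female mice 8 weeks of age, heterozygous for a Cre-inducible BrafV600E allele and for a tdTomato reporter, and no Cre treatment is named for these samples, so every group carried both alleles. Proximal and distal organoids had received Scramble-sgRNA (control) or Cdx2-sgRNA, the latter directed at Cdx2, a homeobox transcription factor of intestinal identity, and were studied in WENR-plus medium, which holds Wnt3a, EGF, Noggin and R-spondin 1, or in WENR-minus medium, which lacks them. The 8 groups had 2 libraries each, and by the study's methods the organoids of all groups came from 2 mice. Edited organoids descend from single clones that carried frameshifts in Cdx2, whereas no cloning step is described for the Scramble-sgRNA organoids, so the guide and the clone cannot be told apart. At month 4 of culture, after 2 days in WENR-plus medium, organoids spent 3 days in one of the media.

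The ER folds secreted and membrane proteins with chaperones such as BiP (encoded by Hspa5) and GRP94 (Hsp90b1), with protein disulfide isomerases such as Pdia4, and with helpers that work on BiP, such as the co-chaperones encoded by Dnajb9 and Sdf2l1. When unfolded protein accumulates, the sensor kinase and RNase IRE1, which exists as the broadly expressed Ern1 form and the Ern2 form of mucus-secreting epithelia, splices the mRNA of the transcription factor Xbp1, and the product activates chaperone and degradation genes. Creb3l1 and Creb3l4 encode transcription factors that are held in the ER membrane and released by cleavage in the Golgi. In the colon the demand on this machinery is known to be high in goblet cells, which secrete mucin.

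Promoters are shown for 5 of the genes because the ER stress response element, the letters CCAAT, 9 bases of any kind and CCACG, is the textbook feature of chaperone promoters. The windows are RefSeq sequence of build GRCm38.p6 from 250 bases before to 50 bases after a transcription start, and 8 of the 10 genes had one in the table used. Searched on both strands, the element lay in the windows of 2 of these 8 genes, Hspa5 (1 match, bases -65 to -47 from the start) and Hsp90b1 (2 matches, -212 to -194 and, on the opposite strand, -107 to -89), and in 0.119% of 32817 mouse promoter windows of that length. The letters CCACG alone, which are part of the element, lay in the windows of 7 of the 8 genes and in 32.8% of all windows. The core TGACGTGG was found in none of the 8 and in 0.676% of all windows, and ATTGG, 1 base and CCACG in none of the 8 and in 0.0366%. The letters TGACGT, which are part of that core, lay in the window of 1 of the 8, Hspa5, and in 7.51% of all windows. Hspa5 and Hsp90b1 are printed with the CCAAT and CCACG of each match to the whole element in capitals. Xbp1, Dnajb9 and Pdia4, the genes called on withdrawal in at least 1 line, hold no match to the whole element and are in lower case throughout, although Dnajb9 holds CCACG alone at 2 places and Pdia4 at 1. The chaperone gene Sdf2l1 also holds no match to the whole element. A match is a string of letters, not a measured binding site.
Hspa5, chr2:34771840-34772139, plus strand: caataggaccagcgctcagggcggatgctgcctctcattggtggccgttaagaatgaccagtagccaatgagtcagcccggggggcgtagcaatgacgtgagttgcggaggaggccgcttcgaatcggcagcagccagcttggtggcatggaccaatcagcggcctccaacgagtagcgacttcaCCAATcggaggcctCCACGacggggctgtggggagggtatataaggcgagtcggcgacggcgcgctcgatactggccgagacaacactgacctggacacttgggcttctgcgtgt
Hsp90b1, chr10:86705395-86705694, minus strand: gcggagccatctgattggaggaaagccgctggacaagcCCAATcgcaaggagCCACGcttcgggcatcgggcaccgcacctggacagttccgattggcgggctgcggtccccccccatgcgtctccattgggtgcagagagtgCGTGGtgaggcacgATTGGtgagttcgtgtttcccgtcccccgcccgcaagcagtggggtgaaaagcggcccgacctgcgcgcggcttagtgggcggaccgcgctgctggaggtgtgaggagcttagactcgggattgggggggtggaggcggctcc
Xbp1, chr11:5520391-5520690, plus strand: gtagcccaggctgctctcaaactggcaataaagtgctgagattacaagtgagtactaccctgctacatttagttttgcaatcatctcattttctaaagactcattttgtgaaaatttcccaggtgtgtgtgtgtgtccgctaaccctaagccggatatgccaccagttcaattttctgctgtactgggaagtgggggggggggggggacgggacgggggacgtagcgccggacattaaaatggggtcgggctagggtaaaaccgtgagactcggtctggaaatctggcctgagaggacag
Dnajb9, chr12:44210019-44210318, minus strand: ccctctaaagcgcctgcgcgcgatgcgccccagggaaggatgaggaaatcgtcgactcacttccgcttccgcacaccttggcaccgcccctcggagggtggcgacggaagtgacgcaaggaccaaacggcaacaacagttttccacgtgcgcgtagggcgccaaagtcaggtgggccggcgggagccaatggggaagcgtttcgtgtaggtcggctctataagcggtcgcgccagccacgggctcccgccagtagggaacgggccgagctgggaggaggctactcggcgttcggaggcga
Pdia4, chr6:47813463-47813762, minus strand: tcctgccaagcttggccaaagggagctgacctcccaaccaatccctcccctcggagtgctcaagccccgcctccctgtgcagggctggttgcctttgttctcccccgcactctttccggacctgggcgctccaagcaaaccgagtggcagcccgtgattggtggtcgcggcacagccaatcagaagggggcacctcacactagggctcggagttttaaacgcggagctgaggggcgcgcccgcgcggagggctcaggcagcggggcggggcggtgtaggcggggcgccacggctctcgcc

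Library totals ran from 12465194 to 18922143 reads (median 16836530), and mitochondrial ribosomal RNA took 15.4% to 28.0% of them. Levels between libraries are given as CPM, the reads of a gene relative to the library total scaled by the trimmed mean of M-values, and levels between genes as TPM, which allow for transcript length. Calls were made at an adjusted p under 0.05 over all 15289 genes (edgeR quasi-likelihood test with Benjamini-Hochberg adjustment), and changes are log2 fold changes ± SE. With 2 libraries a group, the p-values rest on a spread estimated over all 16 libraries. The targeted gene, Cdx2, was at 142 and 127 CPM in proximal Scramble-sgRNA WENR-plus organoids and at 29.9 and 33.3 CPM in their Cdx2-sgRNA counterparts, a difference of -2.09 ± 0.21 (adjusted p = 5.48e-05). In distal WENR-plus organoids it was at 76.8 and 67.9 CPM against 62.2 and 50.2 CPM (adjusted p = 0.857), and a frameshift need not lower the mRNA. The epithelial genes Epcam, Vil1, Cdh1 and Krt8 each had at least 2493 reads in every library, and the stromal, immune and endothelial markers Col1a1, Col3a1, Pdgfra, Ptprc, Cd3e and Pecam1 summed to at most 2.85 CPM in any library.

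Per length, 3 of the chaperones were the most abundant of the 10 mRNAs. Median levels over the 16 libraries were 531 TPM for Hsp90b1, 443 TPM for Hspa5, 125 TPM for Pdia4 and 26.1 TPM for Sdf2l1. Of the others, Xbp1 at 64.4 and the co-chaperone gene Dnajb9 at 32.3 TPM lay above Sdf2l1, and the rest lay below it, with Creb3l1 at 21.3, Ern1 at 14.9, Ern2 at 13.99 and Creb3l4 at 7.73 TPM. The highest library exceeded the lowest 1.89-fold in CPM for Pdia4, 1.90-fold for Hsp90b1, 3.13-fold for Sdf2l1, 3.69-fold for Hspa5, 3.98-fold for Ern1, 4.03-fold for Xbp1 and 5.83-fold for Dnajb9, but 34.5-fold for Ern2, 55.0-fold for Creb3l4 and 98.3-fold for Creb3l1. The deepest of these lows rest on few reads, since the 2 proximal Cdx2-sgRNA WENR-plus libraries held 28 and 7 reads of Creb3l4.

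**Figure D1:**
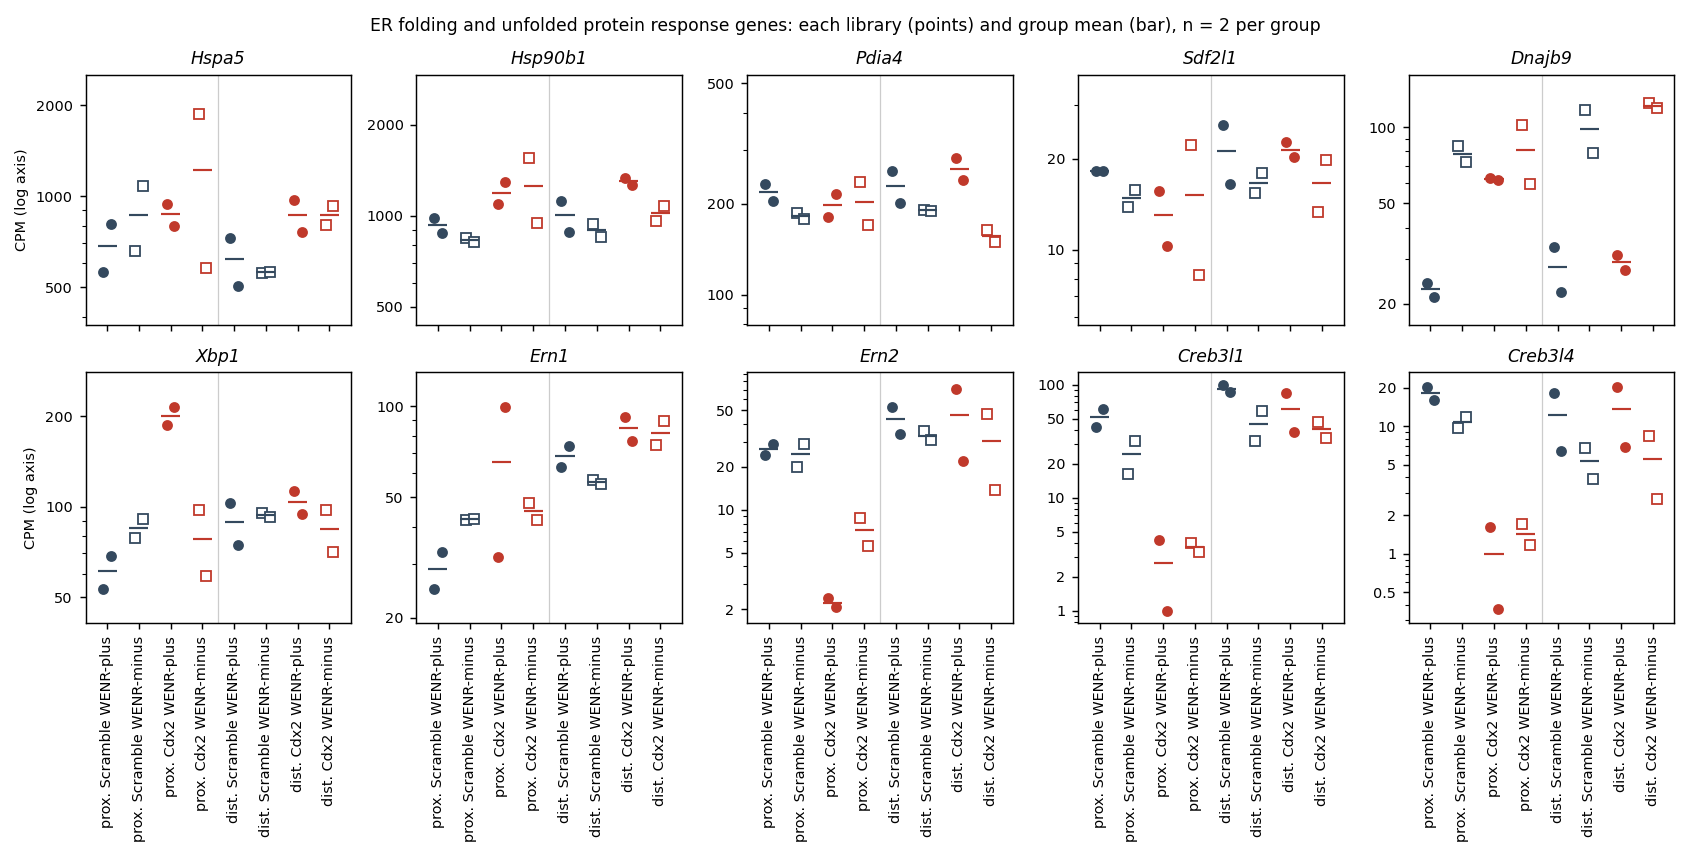
Level of each of the 10 genes in all 16 libraries, in CPM on a log axis whose range differs by gene. Points are libraries (filled, WENR-plus; open, WENR-minus; dark, Scramble-sgRNA; red, Cdx2-sgRNA) and bars are means of 2; Ern2, Creb3l1 and Creb3l4 lie lowest in the proximal Cdx2-sgRNA groups, where Creb3l1 is at 1.01 to 4.23 CPM.

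Of the 4 chaperone genes, 1 was called, in 1 of the 12 comparisons between groups, while the share of all genes called in a comparison ran from 0.137% higher and 0.124% lower to 24.6% higher and 24.4% lower. Hspa5, the gene of the master chaperone BiP (chr2:34771970-34777547, plus strand, GRCm38), was at 564 and 807 CPM in proximal Scramble-sgRNA WENR-plus organoids, 658 and 1080 in WENR-minus, 946 and 798 in proximal Cdx2-sgRNA WENR-plus and 1866 and 577 in proximal Cdx2-sgRNA WENR-minus. In distal organoids it was at 730 and 507 CPM (Scramble-sgRNA WENR-plus), 557 and 563 (Scramble-sgRNA WENR-minus), 972 and 760 (Cdx2-sgRNA WENR-plus) and 805 and 929 (Cdx2-sgRNA WENR-minus). The groups overlapped in 9 of the 12 comparisons, and both the highest library and one of the lower ones belonged to the same group, proximal Cdx2-sgRNA WENR-minus. In none of the 12 comparisons was Hspa5 called, with adjusted p from 0.367 to 1 and SE of 0.43 or 0.44 on the log2 scale, so modest differences could not be seen. Without the filter on low counts it was called higher with Cdx2-sgRNA in distal WENR-minus organoids (0.64, adjusted p = 0.043), where the groups did not overlap. Without the lower library of proximal Cdx2-sgRNA WENR-minus organoids, replicate 2, Hspa5 was higher in Cdx2-sgRNA than Scramble-sgRNA proximal WENR-minus organoids by 1.102 (adjusted p = 0.0337) and than in distal Cdx2-sgRNA WENR-minus organoids by 1.08 (adjusted p = 0.0214). In the same fit Pdia4 (0.56, adjusted p = 0.0436) and Hsp90b1 (0.58, adjusted p = 0.0395) were also higher than in distal Cdx2-sgRNA WENR-minus organoids, whereas without replicate 1 Dnajb9 was lower (-1.02, adjusted p = 0.0136). In that proximal group replicate 1 was above replicate 2 for all 4 chaperone genes and Dnajb9.

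Hsp90b1, the ER form of HSP90 (chr10:86690209-86705509, minus strand), stayed between 819 and 1558 CPM. It was at 843 and 819 CPM in proximal Scramble-sgRNA WENR-minus organoids and at 1558 and 946 in their Cdx2-sgRNA counterparts. Both edited libraries were higher than both controls, yet the difference of 0.59 ± 0.22 missed the threshold (adjusted p = 0.0583). It passed under 6 of the alternatives, among them DESeq2 (0.64, adjusted p = 0.0142), other size factors (adjusted p = 0.0434) and the fit without replicate 2 of the edited group (0.90, adjusted p = 0.00937). Hsp90b1 overlaps 1810014B01Rik on the opposite strand.

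Pdia4, a disulfide isomerase (chr6:47796141-47813430, minus strand), was at 283 and 239 CPM in distal Cdx2-sgRNA WENR-plus organoids and at 163 and 149 CPM in WENR-minus. The groups did not overlap, and the mRNA fell by 0.74 ± 0.18 on the log2 scale (adjusted p = 0.00583). That call was lost without replicate 1 of the WENR-plus group (-0.54, adjusted p = 0.0723) or replicate 2 of the WENR-minus group (-0.62, adjusted p = 0.063). In the other groups Pdia4 ran from 170 to 256 CPM. Sdf2l1, part of a BiP co-chaperone complex (chr16:17130138-17132383, minus strand), ran from 8.25 to 25.8 CPM and was called in none of the 12 comparisons (adjusted p from 0.185 to 1). Without replicate 1 of the proximal Cdx2-sgRNA WENR-minus group, the library with 22.1 CPM against 8.25 in its partner, Sdf2l1 was lower than in distal Cdx2-sgRNA WENR-minus organoids (log2 fold change -1.001, adjusted p = 0.038).

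In the fit that does not pair the 2 media of a culture, withdrawal of the niche factors moved 1 of the 10 genes in most lines. Fits with pairing called further members, given below. The gene moved in most lines was Dnajb9, which encodes the BiP co-chaperone ERdj4 (chr12:44205559-44210326, minus strand). It was at 24.2 and 21.3 CPM in proximal Scramble-sgRNA WENR-plus organoids and at 84.4 and 72.6 CPM in WENR-minus. It was at 33.5 and 22.3 against 117 and 78.6 CPM in distal Scramble-sgRNA organoids, and at 31.1 and 27.1 against 124 and 119 CPM in distal Cdx2-sgRNA organoids. In these 3 lines every WENR-minus library was above every WENR-plus library, and the mRNA rose by 1.79 ± 0.28 (adjusted p = 0.00108), 1.81 ± 0.27 (adjusted p = 0.000436) and 2.06 ± 0.28 (adjusted p = 0.000117). These 3 calls held under every alternative run. In proximal Cdx2-sgRNA organoids Dnajb9 was already at 63.1 and 61.9 CPM in WENR-plus medium and at 102 and 59.7 in WENR-minus, where the ranges overlapped (0.37 ± 0.27, adjusted p = 0.4). The difference between the proximal responses of the edited and control organoids, -1.41 ± 0.38, missed the threshold (adjusted p = 0.0587) and passed with the replicate number as a block (-1.46, adjusted p = 0.0158) and by DESeq2 (-1.42, adjusted p = 0.00734).

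Dnajb9 was the only one of the 10 called higher on withdrawal in proximal Scramble-sgRNA organoids, where 16.4% of all genes tested were called higher and 12.9% lower, and none of the 10 was called lower. The same held in distal Scramble-sgRNA organoids (1 of 10 higher and 0 lower, against 20.3% and 20.2% of all genes). In distal Cdx2-sgRNA organoids 1 of 10 was called higher (Dnajb9) and 1 lower (Pdia4), against 23.0% and 24.0%. In proximal Cdx2-sgRNA organoids 0 of 10 were called higher and 1 lower (Xbp1), against 8.33% and 5.17%. Fits that kept both media of a culture as a pair called further members of the Creb3l and Ern families. Creb3l1 then fell in proximal (-1.14, adjusted p = 0.017) and distal Scramble-sgRNA organoids (-1.09, adjusted p = 0.0167). Creb3l4 fell in distal Scramble-sgRNA (-1.1, adjusted p = 0.011) and distal Cdx2-sgRNA organoids (-1.31, adjusted p = 0.0042). Ern2 rose in proximal Cdx2-sgRNA organoids (1.66, adjusted p = 0.000679) and fell in distal Cdx2-sgRNA organoids (-0.63, adjusted p = 0.00715), where the replicate number as a block over all groups also called Creb3l4 (-1.29, adjusted p = 0.0452). Without WENR-minus replicate 1 of that distal group the Ern2 change was -1.76 (adjusted p = 0.0452), against -0.60 (adjusted p = 0.411) with all libraries. In the fit that paired the media, the proximal response of Ern2 differed between guides (1.79, adjusted p = 0.00331). Without pairing it was not called (1.79, adjusted p = 0.256).

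**Figure D2:**
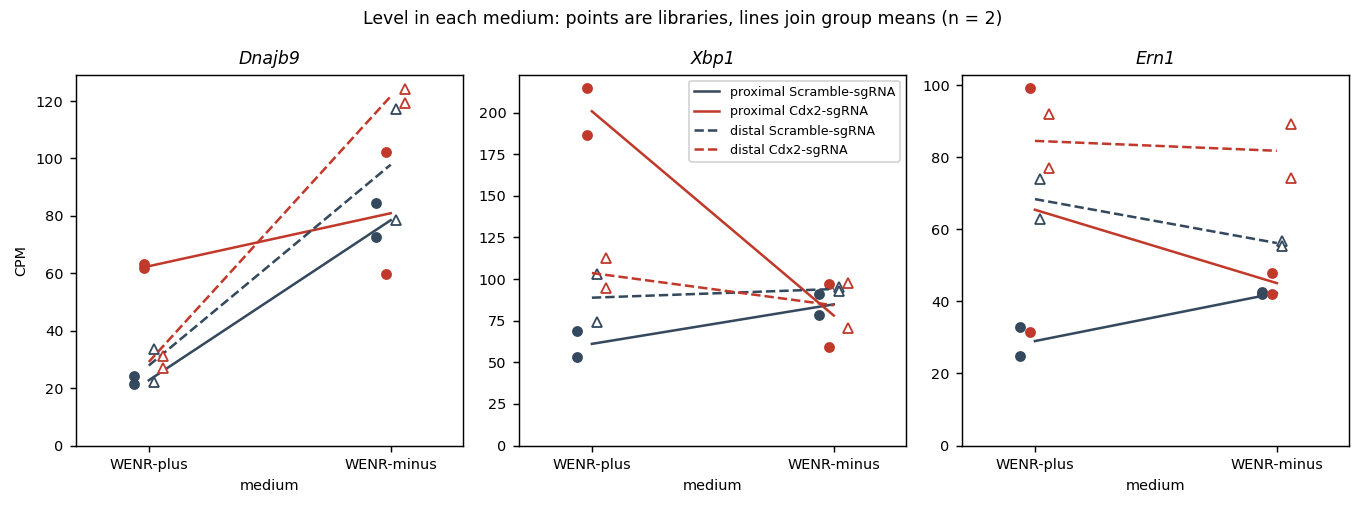
Dnajb9, Xbp1 and Ern1 in CPM in the 2 media; points are libraries (circles, proximal; triangles, distal) and lines join means of 2 libraries. Dnajb9 rises along all 4 lines, least in proximal Cdx2-sgRNA organoids, where the libraries of the media overlap, and Xbp1 of proximal Cdx2-sgRNA organoids starts at 187 and 215 CPM in WENR-plus medium and ends at 97.2 and 59.0 CPM.

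Xbp1, the transcription factor whose mRNA is the substrate of IRE1 (chr11:5520659-5525893, plus strand), stood apart in 1 group. It was at 187 and 215 CPM in proximal Cdx2-sgRNA WENR-plus organoids, whereas the other 14 libraries lay between 53.3 and 113 CPM. Against proximal Scramble-sgRNA WENR-plus organoids, at 53.3 and 68.8 CPM, Xbp1 rose by 1.72 ± 0.26 (adjusted p = 0.000934), and this call held under every alternative run. Against distal Cdx2-sgRNA WENR-plus organoids, at 113 and 94.7 CPM, it was higher by 0.95 ± 0.25 (adjusted p = 0.017), a call lost without proximal replicate 2 (0.85, adjusted p = 0.0895) or distal replicate 2 (0.84, adjusted p = 0.0952). Upon withdrawal Xbp1 of proximal Cdx2-sgRNA organoids fell by 1.36 ± 0.26 (log2 fold change -1.36, adjusted p = 0.00766) to 97.2 and 59.0 CPM, within the range of the other groups. That fall was not called without WENR-plus replicate 2 (-1.26, adjusted p = 0.0563) or when only these 4 libraries were fitted (adjusted p = 0.133). No Xbp1 transcript in the annotation used here (GENCODE vM21) lacks the short intron that IRE1 removes, so the summed level was not divided by form and says nothing of splicing. One model took 86.1% to 98.6% of the Xbp1 reads.

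Ern1, the widely expressed IRE1 gene (chr11:106394650-106487852, minus strand), was at 24.9 and 33.0 CPM in proximal Scramble-sgRNA WENR-plus organoids and at 31.6 and 99.2 CPM in the Cdx2-sgRNA ones. The ranges overlapped, and the called rise of 1.18 ± 0.38 (adjusted p = 0.0438) rested on replicate 2, without which the difference was 0.13 (adjusted p = 0.733). Without either control library it was also lost (1.04, adjusted p = 0.214, without replicate 1; 1.43, adjusted p = 0.102, without replicate 2), as in a fit of the 4 libraries alone (adjusted p = 0.183). Without that library Ern1 of proximal Cdx2-sgRNA WENR-plus organoids was also lower than in distal ones (-1.42, adjusted p = 0.00288), and without replicate 1, which leaves only that library, Ern1 fell on withdrawal (-1.13, adjusted p = 0.00781). In the other groups Ern1 was at 42.1 and 42.5 CPM (proximal Scramble-sgRNA WENR-minus), 48.0 and 42.2 (proximal Cdx2-sgRNA WENR-minus), 62.7 and 74.0 (distal Scramble-sgRNA WENR-plus), 56.9 and 55.5 (distal Scramble-sgRNA WENR-minus), 92.0 and 77.0 (distal Cdx2-sgRNA WENR-plus) and 74.3 and 89.2 (distal Cdx2-sgRNA WENR-minus). The distal libraries were above the proximal ones of the same guide and medium in 3 of the 4 pairs of groups, but none of these region differences was called (adjusted p from 0.08 to 0.541). The difference between Scramble-sgRNA WENR-plus groups, -1.24 ± 0.38 (adjusted p = 0.148), was called by DESeq2 (-1.24, adjusted p = 0.0365). With only the groups compared it was called too (-1.22, adjusted p = 0.0497), as was that between Cdx2-sgRNA WENR-minus groups (-0.86, adjusted p = 0.0178). Without the filter on low counts both were called (adjusted p = 5.73e-07 and 0.000425).

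Ern2, Creb3l1 and Creb3l4 were low in both proximal Cdx2-sgRNA groups. Ern2, the IRE1 gene of secretory epithelia (chr7:122169893-122186207, minus strand), was at 24.3 and 28.9 CPM in proximal Scramble-sgRNA WENR-plus organoids and at 2.38 and 2.06 CPM in the Cdx2-sgRNA ones, from 41 and 39 reads. It fell by 3.58 ± 0.66 on the log2 scale (adjusted p = 0.00284). In WENR-minus medium it was at 19.95 and 29.1 against 8.76 and 5.55 CPM, a fall of 1.78 ± 0.60 (log2 fold change -1.78, adjusted p = 0.0415). The groups did not overlap in either medium.

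Creb3l1, the transcription factor OASIS (chr2:91982328-92024502, minus strand), was at 41.9 and 61.2 CPM in proximal Scramble-sgRNA WENR-plus organoids and at 4.23 and 1.01 CPM in the Cdx2-sgRNA ones. It fell by 4.31 ± 0.63 (log2 fold change -4.31, adjusted p = 0.000765). In WENR-minus medium it was at 16.4 and 31.9 against 4.01 and 3.33 CPM, a fall of 2.72 ± 0.60 (log2 fold change -2.72, adjusted p = 0.00552). Creb3l4 (chr3:90237500-90243512, minus strand), a relative of Creb3l1 expressed in secretory tissues, was at 20.2 and 16.04 CPM in proximal Scramble-sgRNA WENR-plus organoids and at 1.62 and 0.37 CPM in the Cdx2-sgRNA ones. It fell by 4.19 ± 0.83 (log2 fold change -4.19, adjusted p = 0.00425), and in WENR-minus medium, at 9.73 and 11.9 against 1.71 and 1.16 CPM, by 2.92 ± 0.79 (log2 fold change -2.92, adjusted p = 0.0162).

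The WENR-plus calls of these 3 genes held under every alternative in which they were tested; Creb3l4 was not tested where at least 10 reads were asked of every library. In WENR-minus medium the Creb3l1 call held throughout. The Ern2 call was lost on leaving out any 1 of the 4 libraries (-2.00 without Scramble-sgRNA replicate 1, -1.50 without Scramble-sgRNA replicate 2, -2.11 without Cdx2-sgRNA replicate 1 and -1.49 without Cdx2-sgRNA replicate 2, with adjusted p from 0.0727 to 0.21). The Creb3l4 call was lost on leaving out Cdx2-sgRNA replicate 1 (-3.19, adjusted p = 0.0536), Cdx2-sgRNA replicate 2 (-2.67, adjusted p = 0.106) or Scramble-sgRNA replicate 2 (-2.78, adjusted p = 0.0508). In proximal WENR-plus organoids 3 of the 10 genes were thus called lower and 3 higher (Xbp1, Dnajb9 and Ern1), against 14.8% lower and 9.94% higher of all genes tested. Dnajb9 there rose by 1.46 ± 0.27 (adjusted p = 0.00318) in the edited organoids. In proximal WENR-minus organoids 3 were called lower and 0 higher, against 18.3% and 12.7%.

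In distal organoids none of the 10 differed between Cdx2-sgRNA and Scramble-sgRNA by the test, in either medium. The background there was 4.51% of genes higher and 5.25% lower in WENR-minus medium, and 0.137% and 0.124% in WENR-plus. By edgeR no member had an unadjusted p under 0.05 in either, whereas 3984 and 973 of all genes did, and DESeq2 called 0 of the 10 in both. Ern2 was at 53.0 and 33.9 CPM (Scramble-sgRNA) and 71.1 and 22.0 CPM (Cdx2-sgRNA) in distal WENR-plus organoids, and at 35.8 and 30.8 against 47.6 and 13.7 CPM in WENR-minus. Creb3l1 was at 98.7 and 86.4 against 83.8 and 38.0 CPM in WENR-plus, and at 31.6 and 59.1 against 46.4 and 34.0 CPM in WENR-minus. Creb3l4 was at 18.1 and 6.399 against 20.4 and 6.88 CPM in WENR-plus and at 6.77 and 3.87 against 8.46 and 2.68 CPM in WENR-minus. In both distal Cdx2-sgRNA groups replicate 1 was above replicate 2 for each of the 3 genes, and the SE of the differences ran from 0.53 to 0.73 on the log2 scale, so modest differences could not be seen.

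**Figure D3:**
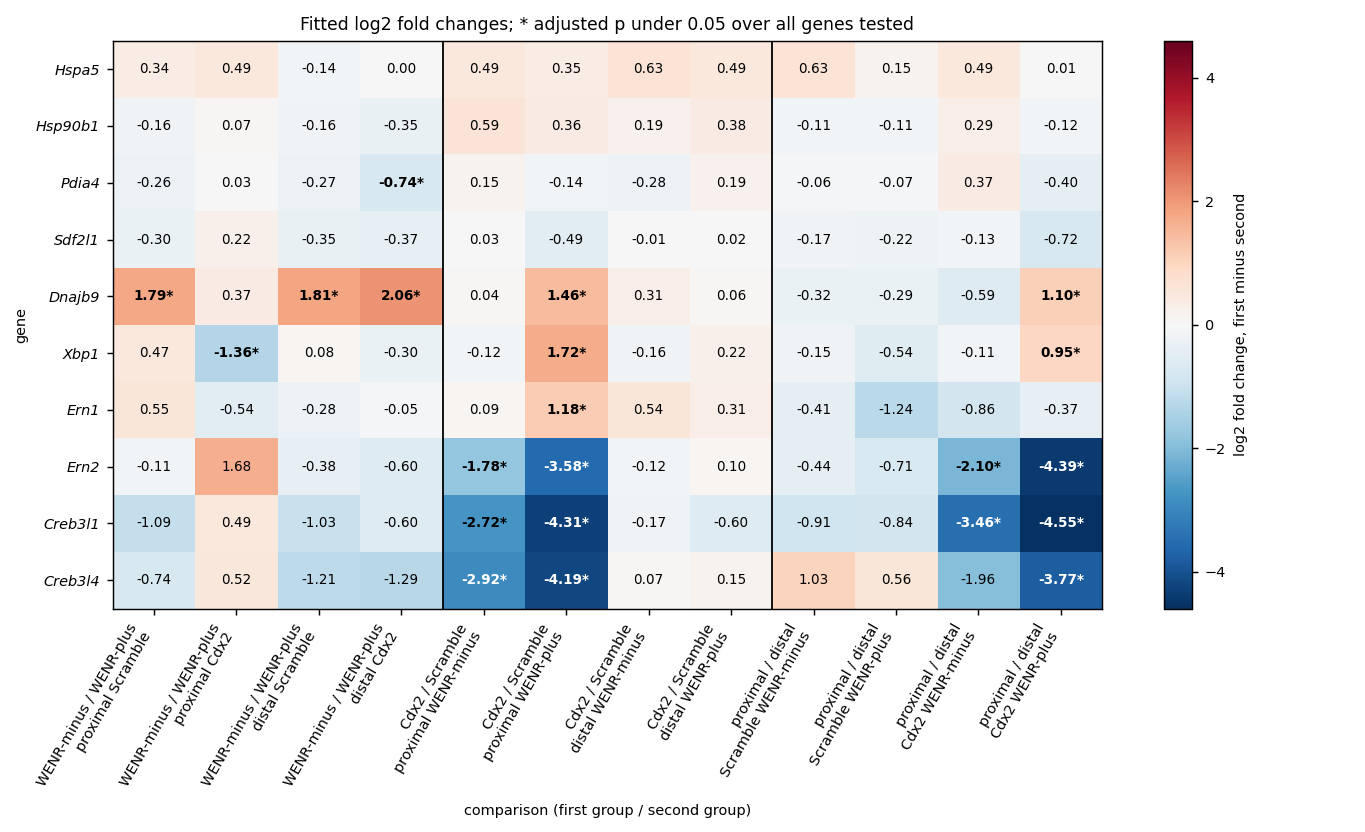
Fitted log2 fold change of each gene (rows) in the 12 comparisons (columns; first group over second), with an asterisk at an adjusted p under 0.05 over all genes tested. Calls gather in the proximal guide columns and the Cdx2-sgRNA region columns for Ern2, Creb3l1 and Creb3l4, where Creb3l1 reaches -4.55, and along the Dnajb9 row for medium.

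The test of the difference itself bore on the region. In WENR-plus medium the effect of Cdx2-sgRNA in proximal organoids differed from that in distal organoids for 4 of the 10 genes, against 5.70% of all genes: Ern2 by -3.68 ± 0.85 (adjusted p = 0.0295), Creb3l1 by -3.71 ± 0.80 (adjusted p = 0.0217), Creb3l4 by -4.34 ± 1.07 (adjusted p = 0.0372) and Xbp1 by 1.495 ± 0.36 (adjusted p = 0.0341). These calls were fragile: of the 8 libraries, leaving out any 1 ended the Ern2 call, except distal Cdx2-sgRNA replicate 2. The Xbp1 call was ended by any 1 except proximal Cdx2-sgRNA replicate 1 and distal Scramble-sgRNA replicate 2. The Creb3l1 call was ended by any 1 except proximal Scramble-sgRNA replicate 1, proximal Cdx2-sgRNA replicate 1 and distal Cdx2-sgRNA replicate 2, and the Creb3l4 call by any 1 except proximal Cdx2-sgRNA replicate 1, distal Scramble-sgRNA replicate 1 and distal Cdx2-sgRNA replicate 2. No left-out library kept all 4. With only the groups compared in the fit, Xbp1 was still called (1.54, adjusted p = 0.0381), Ern2, Creb3l1 and Creb3l4 were not, and Dnajb9 was (1.44, adjusted p = 0.0412). With the replicate number as a block Dnajb9 joined them (1.38, adjusted p = 0.0123; 1.39, adjusted p = 0.057 without it). In WENR-minus medium 1 of the 10 genes differed, Creb3l1 by -2.55 ± 0.79 (adjusted p = 0.0477, against 17.2% of genes), and no left-out library kept that call, with adjusted p from 0.051 to 0.138. The replicate block added Creb3l4 there (-3.01, adjusted p = 0.0142). The change on withdrawal differed between edited and control proximal organoids for Xbp1 (-1.84 ± 0.36, adjusted p = 0.0254, 1 of 10 against 4.38% of genes), a call that 5 of the 8 left-out libraries ended (both Scramble-sgRNA WENR-plus libraries, Scramble-sgRNA WENR-minus replicate 1 and replicate 2 of both Cdx2-sgRNA groups), with values from -1.56 to -2.05. In distal organoids that difference was called for 0 of the 10 and 0% of genes by edgeR, where 0 members and 1457 genes had an unadjusted p under 0.05 and DESeq2 called 0 members. The response of Scramble-sgRNA organoids to medium differed between regions for 0 of the 10 (0 with an unadjusted p under 0.05, and 0 by DESeq2) and 0.0719% of genes.

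Between regions, none of the 10 genes differed by the test in control organoids. In Scramble-sgRNA organoids 0 of 10 were called in WENR-minus (4.21% of genes higher in proximal and 5.74% lower) and 0 in WENR-plus (0.733% and 1.39%), by edgeR. Of the 10, 0 and 1 had an unadjusted p under 0.05 there, and DESeq2 called 0 and 1, the latter Ern1. In Cdx2-sgRNA WENR-plus organoids 2 were called higher in proximal (Xbp1 and Dnajb9) and 3 lower (Ern2, Creb3l1 and Creb3l4), against 11.2% and 18.1%. The log2 fold change there was -4.39 ± 0.67 for Ern2 (adjusted p = 0.000904), -4.55 ± 0.64 for Creb3l1 (adjusted p = 0.000524) and -3.77 ± 0.82 for Creb3l4 (adjusted p = 0.00617). Dnajb9 was higher by 1.101 ± 0.27 (adjusted p = 0.0114), not so without distal replicate 2 (1.01, adjusted p = 0.0707), and Creb3l4 was not called without proximal replicate 2 (-3.06, adjusted p = 0.0509). These comparisons share the proximal Cdx2-sgRNA libraries with the guide comparisons above. In Cdx2-sgRNA WENR-minus organoids 0 of 10 were higher and 2 lower, against 24.6% and 24.4%. Creb3l1 was lower, with a log2 fold change of -3.46 ± 0.61 (adjusted p = 0.000819). Ern2 was lower with one of -2.10 ± 0.60 (adjusted p = 0.0135), which was lost without distal replicate 1 (-0.95, adjusted p = 0.222) or proximal replicate 2 (-1.83, adjusted p = 0.0924). With the replicate block 4 of the 10 were called in that comparison, Creb3l4 (-1.81, adjusted p = 0.0153) and Dnajb9 (-0.63, adjusted p = 0.0171) being added. The share of all genes called under that block is not given here, so this count has no background. With only the groups compared, Ern2 was not called in that comparison (-2.105, adjusted p = 0.0506). In the same kind of fit Creb3l4 was not called between the regions in Cdx2-sgRNA WENR-plus organoids (-3.74, adjusted p = 0.0556).

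The balance of the IRE1 genes shifted with these groups. The ratio of Ern2 to Ern1 in TPM was 0.30 to 1.73 in the 12 libraries outside the proximal Cdx2-sgRNA groups. It was 0.13 and 0.037 in proximal Cdx2-sgRNA WENR-plus organoids and 0.38 and 0.22 in WENR-minus, of which 1 library overlapped the rest, since distal Cdx2-sgRNA WENR-minus replicate 2 was at 0.30. The ratio of Creb3l1 to Creb3l4 was 0.91 to 2.01 in all proximal libraries and 2.22 to 8.40 in all distal ones, a separation of the regions that was not tested. Reads of Ern2 were divided between an intact model and a model annotated as subject to nonsense-mediated decay, which took 40.7% to 92.1% of them, so the summed level is not a level of coding mRNA alone.

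Goblet cell markers were lowest in the same proximal Cdx2-sgRNA libraries as Ern2, Creb3l1 and Creb3l4. The summed level of 10 goblet cell markers (Muc2, Agr2, Tff3, Spdef, Fcgbp, Clca1, Zg16, Atoh1, Spink4 and Klk1) was 39.0 to 52.1 CPM in proximal Cdx2-sgRNA WENR-plus organoids and 57.3 to 75.0 CPM in WENR-minus, against 927 to 1484 and 6452 to 7700 CPM in the Scramble-sgRNA ones. Of these 10 markers, 8 were called lower in the edited proximal organoids in WENR-plus medium, against 14.8% of all genes, the exceptions being Clca1 (-0.47) and Zg16 (-1.66), and 10 in WENR-minus, against 18.3%. No marker was at 0 reads in any library. Markers of other cell types moved in the same libraries. The summed level of 6 enteroendocrine markers (Chga, Chgb, Neurod1, Neurog3, Pyy and Gcg) was 1.27 to 1.45 CPM in proximal Cdx2-sgRNA WENR-plus organoids and 0.90 to 1.93 CPM in WENR-minus, against 63.9 to 85.5 and 119 to 193 CPM in the Scramble-sgRNA ones. That of 6 colonocyte markers (Car1, Car4, Krt20, Slc26a3, Aqp8 and Fabp2) was 136 to 240 against 183 to 250 CPM in WENR-plus, where the ranges overlapped, and 517 to 1591 against 6669 to 9957 CPM in WENR-minus. The epithelial genes Epcam, Vil1, Cdh1 and Krt8 summed to 1845 to 2530 against 3243 to 3309 CPM in WENR-plus and to 4939 to 5050 against 8581 to 9254 CPM in WENR-minus. The sum of 6 proliferation genes was 626 to 783 against 1341 to 1556 CPM in WENR-plus and 667 to 775 against 317 to 541 CPM in WENR-minus, and that of 3 tuft cell markers was 2.90 to 11.3 against at most 0.41 CPM in WENR-plus and 1.11 to 6.35 against at most 0.31 CPM in WENR-minus. In bulk RNA, fewer goblet cells and less of these mRNAs per cell cannot be told apart, and the part of cell makeup in the lower Ern2, Creb3l1 and Creb3l4 was not tested. On withdrawal in Scramble-sgRNA organoids the goblet sum was higher in every WENR-minus library (6051 to 11389.8 against 1056 to 1936 CPM in distal organoids), and 4 of the 10 markers were called higher in each region (against 16.4% of all genes in proximal and 20.3% in distal organoids), while Ern2 was at 33.9 to 53.0 CPM before and 30.8 to 35.8 after in distal organoids (-0.38 ± 0.56, adjusted p = 0.624). Creb3l1 in the same distal organoids was at 86.4 to 98.7 CPM before and 31.6 to 59.1 after, without overlap (-1.03 ± 0.53, adjusted p = 0.147). That fall was called by the fit that paired the media (-1.09, adjusted p = 0.0167) and with only the groups compared (-0.999, adjusted p = 0.0348). The markers themselves differed in these distal organoids: Tff3, Fcgbp, Clca1 and Zg16 rose, by 1.78, 2.88, 5.42 and 5.13, while the other 6 were not called, with Muc2 at 1.80, Klk1 at 1.68, Spink4 at 0.32, Agr2 at -0.49, Spdef at -0.57 and Atoh1 at -0.78. In proximal Scramble-sgRNA organoids the 6 uncalled markers were Klk1 at 1.91, Tff3 at 1.63, Agr2 at 0.65, Spdef at 0.12, Spink4 at -0.0090 and Atoh1 at -0.29.

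**Figure D4:**
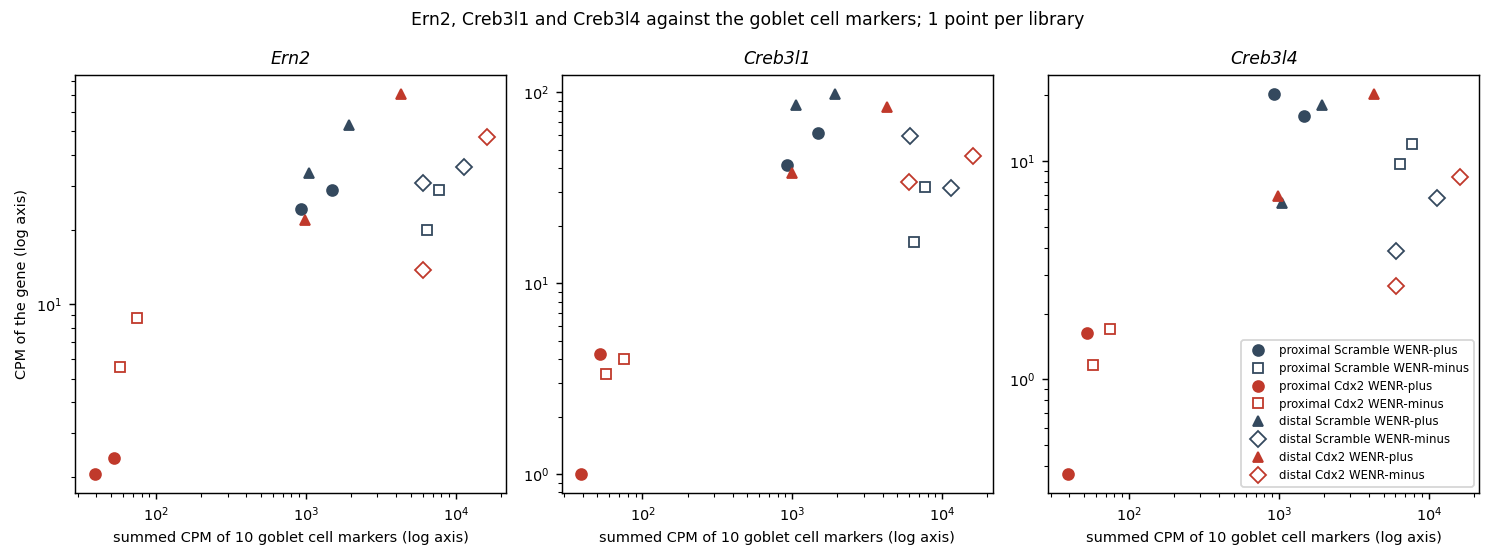
Ern2, Creb3l1 and Creb3l4 in CPM (vertical) against the summed CPM of 10 goblet cell markers (horizontal), 1 point a library, both axes log. The 4 proximal Cdx2-sgRNA libraries lie at the lower left, at 39.0 to 75.0 CPM of marker mRNA, and WENR-minus libraries (open) of the other lines lie to the right of WENR-plus libraries (filled) at similar or lower levels of the genes.

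Across the 16 libraries Ern2, Creb3l1 and Creb3l4 varied together (Pearson r of log2 CPM 0.93 for Ern2 with Creb3l1, 0.88 for Ern2 with Creb3l4 and 0.86 for Creb3l1 with Creb3l4), whereas Ern1 and Ern2 did not (r = 0.14). Among the chaperones r was 0.62 for Hspa5 with Hsp90b1 and 0.15 for Hspa5 with Pdia4, and r was 0.21 for Xbp1 with Dnajb9. These are descriptions without a test, since the 16 libraries share groups and, for the media, cultures. Of all genes tested, those most like Hspa5 were Manf (r = 0.84), Zmpste24 (0.80), Oas2 (0.80), Scfd1 (0.77) and Aass (0.75). Those most like Ern2 were Gm44985 (0.97), Pknox1 (0.95), Chst4 (0.95), Galnt5 (0.95) and Myt1 (0.94), and those most like Creb3l1 were Myt1 (0.96), Nudt3 (0.96), Nans (0.96), Nkx2-2 (0.95) and Grk6 (0.95).

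The rest of the secretory pathway was read in 6 further lists. Among 14 other ER chaperones and folding enzymes, 2 were called higher and 2 lower in proximal WENR-plus organoids with Cdx2-sgRNA (median log2 fold change -0.04, against -0.05 over all genes), near the background of 9.94% and 14.8%. The oxidase Ero1a rose by 2.31 ± 0.54 (adjusted p = 0.0103) and the disulfide isomerase Txndc5 fell by 1.42 ± 0.41 (log2 fold change -1.42, adjusted p = 0.028). In proximal WENR-minus organoids 0 were higher and 2 lower, against 12.7% and 18.3% of all genes, Txndc5 by -1.58 ± 0.41 (adjusted p = 0.014) and the lectin chaperone Canx by -0.42 ± 0.12 (adjusted p = 0.0255). No gene of this list was called in distal organoids in either medium between the guides, where at most 5.25% of all genes were called in a direction. On withdrawal the list went both ways, with 1 called up and 0 down in the proximal Scramble-sgRNA line, 2 and 0 in proximal Cdx2-sgRNA, 3 and 2 in distal Scramble-sgRNA and 1 and 3 in distal Cdx2-sgRNA, where the background was 16.4% and 12.9%, 8.33% and 5.17%, 20.3% and 20.2%, and 23.0% and 24.0%. Ero1a rose by 1.72 ± 0.53 (adjusted p = 0.0221) and Txndc5 fell by 1.37 ± 0.41 (adjusted p = 0.0206) in distal Scramble-sgRNA organoids, and Txndc5 fell by 1.66 ± 0.42 (adjusted p = 0.00632) and the disulfide isomerase Pdia6 by 1.23 ± 0.24 (log2 fold change -1.23, adjusted p = 0.0012) in distal Cdx2-sgRNA ones.

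Genes of ER-associated degradation, which retrieve and destroy misfolded proteins, were called higher on withdrawal beside Dnajb9. Of 10 tested, 6 rose and 0 fell in proximal Scramble-sgRNA organoids (median 0.72, against -0.06 over all genes), 6 and 0 in distal Scramble-sgRNA (0.68 against -0.11) and 7 and 0 in distal Cdx2-sgRNA (0.75 against -0.10). In proximal Cdx2-sgRNA organoids 0 of 10 were called (0.41 against -0.03), near the 8.33% of all genes called higher there, and the test of the difference between the proximal responses of the guides called 0 of the 10. Selenos rose by 1.08 ± 0.26 (adjusted p = 0.0103) and the ubiquitin ligase Syvn1 by 0.98 ± 0.24 (adjusted p = 0.0108) in proximal Scramble-sgRNA organoids. The mannosidase-like Edem1 rose by 1.47 ± 0.44 (adjusted p = 0.019) in distal Scramble-sgRNA organoids and by 1.4 ± 0.44 (adjusted p = 0.0205) in distal Cdx2-sgRNA ones. A list of 8 genes of the PERK arm and of stress output was read too. The PERK arm is the branch that acts through translation and Atf4, and the list does not separate it from other stress output. On withdrawal 4 of the 8 were higher in proximal Scramble-sgRNA organoids (Atf3 by 2.01 ± 0.57, adjusted p = 0.0212, and Chac1 by 1.82 ± 0.59, adjusted p = 0.0381). In distal Scramble-sgRNA organoids 3 were higher, in distal Cdx2-sgRNA ones 3 were higher and 1 lower, and in proximal Cdx2-sgRNA ones 0 were higher. The shares of all genes called higher were 16.4%, 20.3%, 23.0% and 8.33% in that order, so 0 of 8 in the last is near its background. The phosphatase subunit Ppp1r15a rose by 1.43 ± 0.28 (adjusted p = 0.00197) and by 2.01 ± 0.28 (adjusted p = 0.000156) in the distal lines. With Cdx2-sgRNA in proximal WENR-plus organoids the 2 largest called changes of this list were rises. Atf3 was higher by 1.71 ± 0.56 (adjusted p = 0.046) and Ppp1r15a by 0.85 ± 0.28 (adjusted p = 0.0438), where 9.94% of all genes were called higher. Whether this raised start bears on the response of proximal Cdx2-sgRNA organoids was not tested.

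For 8 other sensors and membrane-bound factors counts are not given here, so what follows covers single genes and not the list. Among them the clearest was Creb3l3, a liver and intestinal relative of Creb3l1 and Creb3l4. Unlike them it was called higher on withdrawal in every line: by 5.14 ± 0.72 (adjusted p = 0.000695) and 3.49 ± 0.80 (adjusted p = 0.0168) in proximal Scramble-sgRNA and Cdx2-sgRNA organoids, and by 4.66 ± 0.70 (adjusted p = 0.000416) and 6.61 ± 0.75 (adjusted p = 3.93e-05) in distal ones. With Cdx2-sgRNA in proximal WENR-minus organoids Creb3l3 fell by 2.74 ± 0.61 (log2 fold change -2.74, adjusted p = 0.0059). Creb3l2, another relative, was higher with Cdx2-sgRNA in proximal organoids in WENR-minus (1.27 ± 0.26, adjusted p = 0.00367) and WENR-plus medium (1.48 ± 0.26, adjusted p = 0.00234), where Creb3l1 and Creb3l4 were lower. Of 15 translocon and signal peptide genes, 1 was higher and 3 lower with Cdx2-sgRNA in proximal WENR-minus organoids (Sec61b by -0.97 ± 0.29, adjusted p = 0.0258, and Ssr4 by -0.84 ± 0.19, adjusted p = 0.00574), and 1 and 0 in WENR-plus (Sec63 by 0.57 ± 0.19, adjusted p = 0.0467). Of all genes, 12.7% were called higher and 18.3% lower with the guide in the former medium, and 9.94% and 14.8% in the latter, so these counts are near or below the background. Of 10 genes of COPII transport and retrieval, 3 were higher and 1 lower on withdrawal in each distal line, where 20.3% and 20.2% of all genes (Scramble-sgRNA) and 23.0% and 24.0% (Cdx2-sgRNA) were, so the counts are near the background. The coat GTPase Sar1b rose by 1.54 ± 0.17 (adjusted p = 9.63e-05) and the cargo receptor Lman1 fell by 1.15 ± 0.18 (log2 fold change -1.15, adjusted p = 0.000565) in distal Scramble-sgRNA organoids. In proximal Scramble-sgRNA organoids Sar1b rose by 0.80 ± 0.17 (adjusted p = 0.00585) and Lman1 changed by -0.58 ± 0.18 (adjusted p = 0.0324). With Cdx2-sgRNA in proximal organoids Sar1b was higher in WENR-plus (0.71 ± 0.17, adjusted p = 0.0122) and lower in WENR-minus medium (-0.56 ± 0.17, adjusted p = 0.0295). The proximal response of Sar1b to withdrawal differed between the guides (-1.27 ± 0.24, adjusted p = 0.0234).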

How the data were processed

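RNA-seq of 16 mouse colon organoid libraries (8 groups of 2) was analysed from the per-transcript tables deposited by the authors, who ran Salmon 1.1.0 with transcripts of build mm10, from stranded total RNA libraries. The deposited values are estimated counts (NumReads) and TPM per transcript. Here both were summed per gene with GENCODE vM21, whose build is the same, while the methods name a later release; at most 0.509% of a library's reads had no match. Estimated counts were rounded and tested in edgeR 4.0.16 (R 4.3.3) by its quasi-likelihood test, with TMM scaling, filterByExpr (15289 genes kept), 1 coefficient per group and 8 residual degrees of freedom, and p-values were adjusted by Benjamini-Hochberg within each of 12 comparisons and 5 differences of comparisons. CPM are scaled by TMM. Alternatives were DESeq2 1.42.0, other scaling, filters, a fold threshold, length-scaled counts, fewer groups, left-out libraries and a replicate block. By the study's methods the organoids of all groups came from 2 independent mice, but which mouse a replicate number marks in each group is not stated. Same-numbered libraries deviated together in the 2 media of a culture (r from 0.281 to 0.589), but over all 28 pairs of groups only 9 had r over 0.1 (median 0.0729). The tests were tried on simulated counts first.

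The 10 members and all lists were chosen with earlier results of these data known. The genes named are the 10 members; of each further list, the 2 members with the largest absolute change among those called; and the 5 genes with the highest r to Hspa5, Ern2 and Creb3l1. Promoters were matched by symbol to a RefSeq table.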

Additional observations from a re-analysis of the deposited data

Results flagged for a closer look

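For 4 genes the effect of Cdx2-sgRNA differed between proximal and distal organoids in WENR-plus medium by a test of the difference itself (edgeR, adjusted p from 0.0217 to 0.0372): the proximal minus distal value was -3.68 for Ern2, -3.71 for Creb3l1, -4.34 for Creb3l4 and 1.495 for Xbp1, as log2 fold changes. In WENR-minus medium this held for Creb3l1 (-2.55, adjusted p = 0.0477). The response of Xbp1 to withdrawal differed between edited and control proximal organoids (-1.84, adjusted p = 0.0254). The libraries whose absence ended these calls are given with the values above.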

How the results depend on the processing

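Of 2123 single-gene values recomputed under alternatives, 1832 kept their direction and their side of the threshold, 158 changed sign without passing in either fit, 64 were no longer called, 69 became called and 0 reversed a call. The share of all genes called under each alternative, the blocks and left-out libraries below included, is not given, so these counts have no background. Counts of called members moved by over 1.5 times as follows, and the cause was not tested. Without a filter on low counts they were 3, 2 and 3 on withdrawal in proximal Scramble-sgRNA, proximal Cdx2-sgRNA and distal Scramble-sgRNA organoids, 1 for the guides in distal WENR-minus, 5 for the regions in Cdx2-sgRNA WENR-minus, 1 and 3 for those in Scramble-sgRNA WENR-minus and WENR-plus, 3 for the guide by region difference in WENR-minus and 5 for the medium by guide difference in proximal organoids (10 reads in every library gave 2 there). With only the groups compared, in the same order, they were 2, 0 and 2 on withdrawal, 1 for the regions in Scramble-sgRNA WENR-plus, 2 and 2 for the guide by region difference in WENR-minus and WENR-plus and 0 for the medium by guide difference. DESeq2 gave 2 on withdrawal in proximal Cdx2-sgRNA organoids, 1 for the regions in Scramble-sgRNA WENR-plus, and 2 and 2 for the guide by region difference in WENR-minus and the medium by guide difference in proximal organoids. A fold threshold gave 1 on withdrawal in distal Cdx2-sgRNA organoids, and length-scaled counts gave 0 for the guide by region difference in WENR-minus.

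With the replicate block, which assumes that a number marks the same mouse in every group (the methods do not state it), 4 members were called for the regions in Cdx2-sgRNA WENR-minus, and 2 each for the guide by region difference in WENR-minus and the medium by guide difference in proximal organoids; the culture-wise replicate block gave 2, 2, 3 and 4 on withdrawal in proximal Scramble-sgRNA, proximal Cdx2-sgRNA, distal Scramble-sgRNA and distal Cdx2-sgRNA organoids and 3 for that last difference. Calls that the block added are given with the results above, and it ended none.

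Leaving out 1 library at a time, where the lone sample left is assumed to vary like the other groups, gave 0 to 2 and 1 to 3 called on withdrawal in proximal and distal Cdx2-sgRNA organoids and 1 to 1 in both Scramble-sgRNA lines, 1 to 3 and 5 to 6 for the guides in proximal WENR-minus and WENR-plus, 0 to 0 in distal organoids, 1 to 4 and 3 to 5 for the regions in Cdx2-sgRNA WENR-minus and WENR-plus, 0 to 0 in Scramble-sgRNA organoids, 0 to 0 and 0 to 4 for the guide by region difference in WENR-minus and WENR-plus, 0 to 2 for the medium by guide difference in proximal organoids and 0 to 0 for the differences in distal organoids and between regions of controls.

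The limits are 2 libraries a group, single clones for the edited lines, few reads of Creb3l4 and Creb3l1 where they are low, and bulk RNA. Creb3l4 was not tested with 10 reads asked of every library. The share of spliced Xbp1 was planned and not run, because the annotation used holds no spliced model.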
